A study of Mus musculus with 9 samples.

Results

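The 10 genes described here are Bcl3 and the central members of the mouse NF-kB pathway: the subunit genes Nfkb1, Nfkb2, Rela, Relb and Rel, the inhibitor genes Nfkbia, Nfkbib and Nfkbie, and the kinase gene Ikbkb. They were found through the RefSeq accession of each probe, and they had 14 of the 39364 probes used, that is 10 of 32450 genes or identifiers. The set was chosen by the fall of Bcl3 from control embryonic stem (ES) cells to primordial germ cells (PGCs), which is among the largest measured. The Bcl3 values in PGCs are therefore a description and were not tested.

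RNA was measured on 9 single-colour Agilent arrays, 3 per group, to ask how ES cells with less Max compare with normal ES cells and with germ cells of the embryo. The control cells were male 129SV ES cells of the line VV3, in which the Vasa promoter drives a Venus reporter, transfected with the non-silencing AllStars siRNA, cultured for 3 days and sorted as live single cells. The Max knockdown cells were VV3 cells given an siRNA against Max for the same time and sorted, in addition, for the Venus reporter, so these groups differ in the gate as well as in the siRNA. Both were grown with serum replacement, a little serum and leukaemia inhibitory factor (LIF), and both come from 1 cell line. The PGCs were GFP-positive cells sorted from male genital ridges at E13.5 of MCH x C57BL6/J embryos with the Oct4ΔPE-GFP transgene, a reporter of germ cells, so they also differ from the ES cells in strain and in origin. The series names 3 biological replicates per group.

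NF-kB is a family of dimeric transcription factors. In resting cells IkB proteins hold the dimers in the cytoplasm. The IKK kinase, of which Ikbkb encodes a catalytic subunit, phosphorylates IkB after a signal and so marks it for degradation, and the freed dimers enter the nucleus and bind kappaB sites. Nfkb1 and Nfkb2 encode precursors whose processed forms bind DNA but carry no activation domain, whereas Rela, Relb and Rel encode subunits that have one. Bcl3 is an atypical IkB protein that acts in the nucleus, where it binds the processed products of Nfkb1 and Nfkb2 and joins them to coactivators or corepressors. In mouse ES cells Bcl3 is known as a target of LIF and STAT3 signalling with a part in keeping cells pluripotent. Genes for IkB proteins, and Nfkb2 itself, are known targets of NF-kB.

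The promoters of this family are shown because many carry the site that the family binds. RefSeq windows reaching from 250 bases before to 50 bases after the start (build GRCm38.p6) were held for 7 of the 10 genes, 9 windows in all; Nfkb1, Relb and Ikbkb had none. The 10-letter kappaB consensus, searched on both strands, was found in 7 of these 9 windows, those of Bcl3, Nfkb2, Rel, Nfkbia and Nfkbie, against 4.51% of 32851 promoters. The 3 Nfkb2 windows are not independent, since 2 of them overlap and share a match. The windows of Rela and Nfkbib had no match. Stretches of 140 bases, 120 before the start and 20 from the start on, follow for Bcl3, Nfkb2 and 2 inhibitor genes, on which the results turn, with every kappaB match in capitals.
Bcl3 (chr7:19822736-19822875, minus strand): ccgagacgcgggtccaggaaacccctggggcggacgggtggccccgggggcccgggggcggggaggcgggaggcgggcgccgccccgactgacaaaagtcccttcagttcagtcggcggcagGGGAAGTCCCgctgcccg
Nfkb2 (chr19:46304617-46304756, plus strand): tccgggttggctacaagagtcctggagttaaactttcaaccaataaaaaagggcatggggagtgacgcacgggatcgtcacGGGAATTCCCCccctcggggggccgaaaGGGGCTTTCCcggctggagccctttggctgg
Nfkbia (chr12:55492628-55492767, minus strand): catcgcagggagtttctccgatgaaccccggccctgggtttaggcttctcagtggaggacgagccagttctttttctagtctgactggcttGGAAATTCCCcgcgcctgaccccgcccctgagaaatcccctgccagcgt
Nfkbie (chr17:45555580-45555719, plus strand): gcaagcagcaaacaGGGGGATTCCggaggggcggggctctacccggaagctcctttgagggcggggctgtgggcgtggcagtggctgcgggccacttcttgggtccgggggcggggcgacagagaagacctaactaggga
The stretch of Nfkb2 is from the first of its 3 windows. In the stretches shown, the match of Bcl3 lies just inside the transcript, those of Nfkb2 and Nfkbia lie close before the start, and that of Nfkbie lies farther upstream. The other Nfkb2 windows have matches just inside the transcript and far upstream. In Nfkb2 the first capital run holds 2 overlapping matches. The STAT motif TTCNNNGAA, searched on both strands, was found only in 1 window of Nfkb2 among the 9, against 8.3% of all promoters, and the E-box CACGTG, the letters bound by Max with its partners, was in none of the 9, against 7.15%. A match of letters does not show binding.

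The share of the 43020 spots that stood well clear of the background ranged from 58.2% to 67.6% over the arrays, no spot was saturated, and the small number of arrays limits the precision. All values below are log2 levels relative to the 75th percentile of the array, so that 0 is the 75th percentile itself and 1 unit is a 2-fold step; a level of one gene cannot be set against that of another, because probes differ. Replicate arrays correlated at 0.991 to 0.995 over probes, ES arrays of different groups at 0.966 to 0.974 and ES arrays with PGC arrays at 0.866 to 0.882. As a check of the labels, Max was at 2.84, 2.74 and 2.85 on the control arrays and at 0.59, 0.83 and 1.13 on the knockdown arrays, 3.89-fold lower (adjusted p = 2.93e-05). Ddx4, the Vasa gene of the reporter, was 6.22-fold higher in knockdown cells, which were sorted for it, and the level of Pou5f1 lay between 4.33 and 4.81 on all 9 arrays. The 8 germ cell markers summed, as multiples of the 75th percentile, to 9.91 to 10.8 in control cells, 36.5 to 40.7 in knockdown cells and 127 to 146 in PGCs, and the 7 ES cell markers to 73.4 to 86.7, 99.2 to 107.4 and 41.3 to 49.5. Presence alone separates the groups little: 7 of the 8 germ cell markers were well above background on all control arrays too, and 6 of the 7 ES cell markers on all PGC arrays.

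Bcl3 was high in both kinds of ES cells and was not measurable in PGCs. Its level was 3.49, 3.18 and 3.09 on the control arrays, 2.63, 2.69 and 2.60 on the knockdown arrays, and -7.38, -6.74 and -6.59 on the PGC arrays, where its probe was never well above background. The 3 groups did not overlap. Knockdown cells had 1.53-fold less Bcl3 than control cells (log2 difference -0.62, SE 0.20, adjusted p = 0.0373 by limma with Benjamini-Hochberg adjustment over 20443 genes). The difference was -0.67 on the first slide, with 2 arrays per group, and -0.50 on the second, with 1 per group. This call is at the edge of the threshold: leaving out control 1, 2 or knockdown 1, 2 or 4 gave adjusted p = 0.117, 0.0717, 0.0869, 0.0744 and 0.0872, and only without control 3 did it hold, at 0.0498. Without the filter on dim genes the adjusted p was 0.0819, and under spike-in scaling it was 0.959. The error of the main fit also covers the PGC arrays, where the probe was at background. Fitted without those arrays, the same difference had an adjusted p of 0.00919. With the slide as a block it was 0.00499.

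In PGCs Bcl3 was at least 343-fold lower than in control cells and at least 224-fold lower than in knockdown cells. These bounds set the mean of the brighter group against, per PGC array, the lowest signal among probes well above background or the probe's own signal, whichever was higher. The fitted difference from control, -10.16, is no measure of size, since the probe was at background in PGCs: with normexp background correction it was -6.13. In bulk RNA, fewer cells with the transcript and less transcript per cell cannot be told apart, here and in every result that follows.

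**Figure D1:**
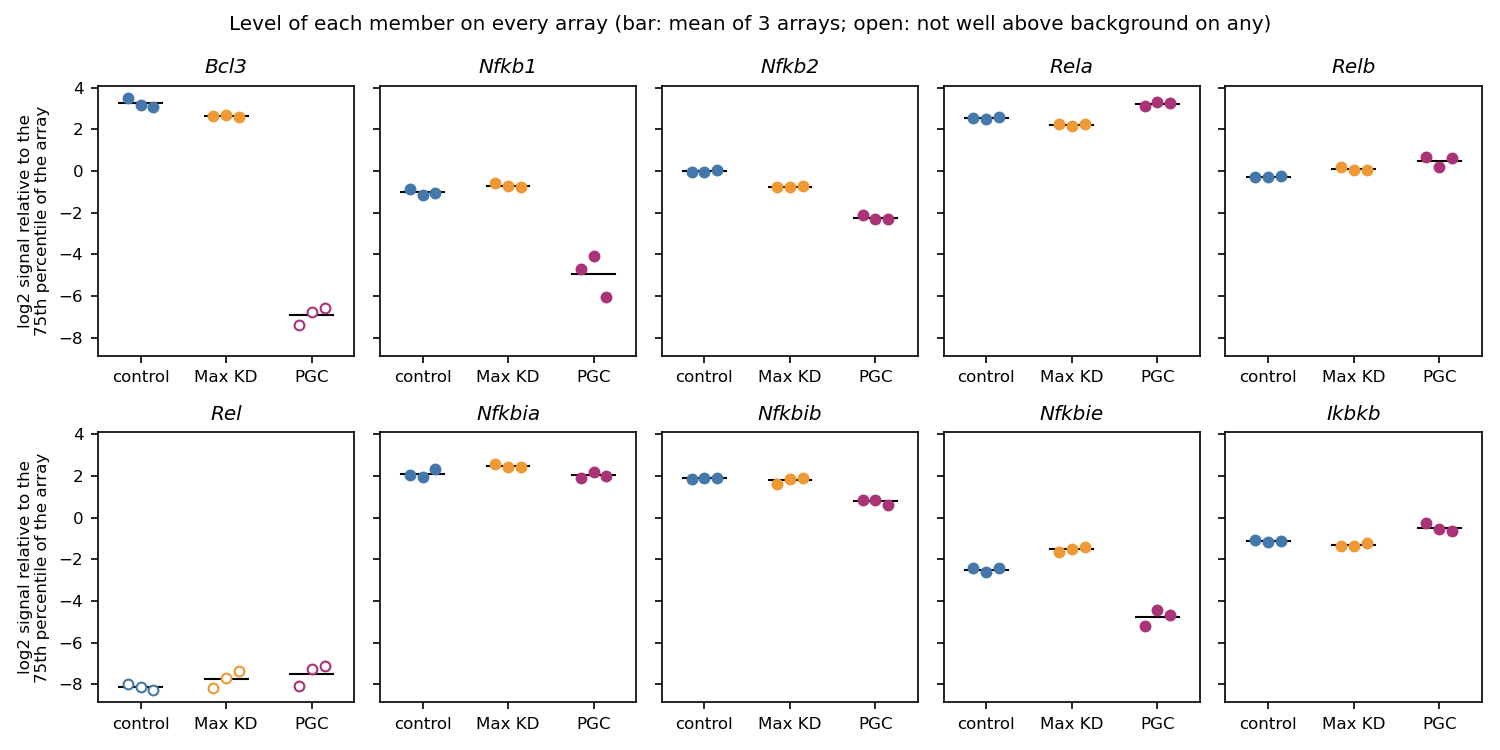
Level of each of the 10 genes on every array (y axis, log2 signal relative to the 75th percentile of the array) in control ES cells, Max knockdown (KD) ES cells and PGCs; each point is 1 array, the bar is the mean of 3, and open points mark groups in which the probe was never well above background. Bcl3 lies between 2.60 and 3.49 on the ES arrays and between -7.38 and -6.59 on the PGC arrays, while Rel is not above background anywhere.

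Among the subunits without an activation domain, Nfkb2 was lower in knockdown cells and lower again in PGCs. Its level was -0.04, -0.05 and 0.03 in control cells, -0.77, -0.78 and -0.73 in knockdown cells, and -2.13, -2.32 and -2.30 in PGCs. The groups were far apart relative to the spread within each. Nfkb2 fell by 0.74 (SE 0.08, adjusted p = 0.000259) with the knockdown, and this call held without any 1 of the arrays, with a highest adjusted p of 0.0017. From control cells to PGCs the fall was 4.69-fold (log2 difference -2.23, adjusted p = 7.03e-08), and from knockdown cells to PGCs the difference was -1.49. With normexp correction the fall from control cells was smaller, -1.58. Its 3 promoter windows each held a kappaB match.

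Nfkb1 did not follow Nfkb2 in knockdown cells. Its brighter probe read -0.86, -1.17 and -1.03 in control cells, -0.59, -0.73 and -0.77 in knockdown cells, and -4.68, -4.07 and -6.05 in PGCs, where it was well above background on 2 of 3 arrays. The knockdown arrays all lay above the control arrays, yet the difference of 0.33 did not pass the test (SE 0.41, adjusted p = 0.574), in a fit whose error also covers the spread-out PGC arrays. Fitted without the PGC arrays, the same difference had an adjusted p of 0.0542. In PGCs Nfkb1 fell relative to control (log2 difference -3.91, SE 0.41, adjusted p = 3.27e-05). The size depends on the background: the difference was -1.84 with normexp correction and -2.90 for the mean of its probes. A second, dim probe read between -6.00 and -4.60 in control cells and between -7.62 and -6.71 in PGCs, and was never well above background in PGCs.

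The subunits with an activation domain differed from these. Rela, the most widely expressed of them in many tissues, was at 2.53, 2.48 and 2.60 in control cells, 2.25, 2.16 and 2.27 in knockdown cells, and 3.1, 3.31 and 3.28 in PGCs. With the knockdown Rela fell by 0.31 (SE 0.09, adjusted p = 0.0226), a small shift with no overlap of arrays. That call was lost without control 1 (adjusted p = 0.0565), control 3 (0.0718) or knockdown 2 (0.0765). It was also lost on slide 1 alone (-0.30, adjusted p = 0.104). In PGCs Rela rose 1.62-fold over control (log2 difference 0.70, adjusted p = 9.07e-05), but when the arrays were scaled to the spike-in RNA the difference was -0.26 and was not called.

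Relb, the partner of the Nfkb2 product in the non-canonical pathway, was at -0.27, -0.29 and -0.25 in control cells, 0.18, 0.06 and 0.03 in knockdown cells, and 0.65, 0.17 and 0.61 in PGCs. All knockdown arrays were above all control arrays, and PGC 2 lay among the knockdown arrays. The knockdown difference of 0.36 missed the threshold (SE 0.13, adjusted p = 0.0586), and the other probe, tested by itself, passed it (0.43, adjusted p = 0.0379). In PGCs Relb rose by 0.74 over control (adjusted p = 0.000762), with a spike-in value of -0.21. Over knockdown cells the rise was 0.39 (adjusted p = 0.0233), with a spike-in value of -0.58 and an adjusted p of 0.0852 for the other probe. This last call was also lost without knockdown 2 (0.0628), knockdown 4 (0.0647), PGC 1 (0.078) or PGC 3 (0.0805). Rel read between -8.28 and -7.13 on the 9 arrays and was not well above background on any of them, so it was not tested.

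The inhibitors moved in different directions. Nfkbie, which encodes IkB epsilon, was at -2.43, -2.62 and -2.44 in control cells, -1.66, -1.49 and -1.41 in knockdown cells, and -5.18, -4.42 and -4.69 in PGCs, where it was well above background on 1 of 3 arrays. The order of the groups was thus knockdown, control, PGC, with no overlap. Nfkbie rose 1.97-fold with the knockdown (log2 difference 0.98, SE 0.18, adjusted p = 0.00304), at 0.95 on the first slide and 1.03 on the second. It fell 4.82-fold from control cells to PGCs (adjusted p = 5.01e-06) and 9.49-fold from knockdown cells to PGCs (adjusted p = 6.21e-07). With normexp correction these log2 differences were smaller, -0.98 and -1.57 in place of -2.27 and -3.25, and that of the knockdown was 0.59; all 3 stayed called.

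Nfkbia, which encodes IkB alpha, the fast-responding inhibitor, was at 2.04, 1.94 and 2.32 in control cells, 2.57, 2.43 and 2.42 in knockdown cells, and 1.92, 2.18 and 2 in PGCs. PGC and control arrays overlapped. Nfkbia rose by 0.37 with the knockdown (SE 0.12, adjusted p = 0.0364), by 0.51 on the first slide and with a difference of 0.10 on the second. Leaving out control 1 or 2 or knockdown 1, 2 or 4 took the adjusted p to 0.101, 0.125, 0.108, 0.0703 and 0.0615, and only without control 3 did the call hold (0.0135). Between PGCs and control cells the difference was -0.07 (SE 0.12, adjusted p = 0.624), and PGCs were 0.44 below knockdown cells (log2 difference -0.44, adjusted p = 0.00865).

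Nfkbib, which encodes IkB beta, was at 1.83, 1.89 and 1.91 in control cells, 1.61, 1.85 and 1.92 in knockdown cells, and 0.85, 0.85 and 0.62 in PGCs. The ES groups overlapped, with a difference of -0.09 (SE 0.11, adjusted p = 0.574), and the PGC arrays lay below both. Nfkbib fell 2.15-fold from control cells to PGCs (adjusted p = 1.97e-05). A second probe differed by -0.999 in that comparison, the third probe was near background, and the mean of the 3 probes differed by -0.54.

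Ikbkb, the kinase gene, was at -1.09, -1.18 and -1.14 in control cells, -1.36, -1.38 and -1.20 in knockdown cells, and -0.27, -0.53 and -0.65 in PGCs. The PGC arrays were the highest. The knockdown difference of -0.17 did not pass the test (SE 0.11, adjusted p = 0.251). In PGCs Ikbkb rose by 0.66 over control cells (adjusted p = 0.000584) and by 0.83 over knockdown cells (adjusted p = 0.000134), with spike-in values of -0.30 and -0.14.

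Between knockdown and control cells, 5 of the 9 genes tested passed the threshold, 2 higher (Nfkbia, Nfkbie) and 3 lower (Bcl3, Nfkb2, Rela), where 40.1% of all 20443 genes passed, 18.2% higher and 21.9% lower. The arrays of 8 of the 9 did not overlap, against 54.1% of all genes. With 9 genes, these shares are not set apart from those of all genes, and the median difference of the 9 was -0.09 against -0.07 over all genes. Scaling to the spike-in RNA left 0 of the 9 called. With the slide added as a block, an alternative chosen after seeing the data, that scaling called 4 of 9, and Bcl3 was among them (-0.60, adjusted p = 0.0296). Of the fibroblast markers, Col1a1, Col1a2, Col3a1, Acta2 and Dcn fell with the knockdown, while Thy1 (-0.38) and Pdgfrb (-0.41) were not called. On all control arrays 7 of the 9 markers were well above background, and on all knockdown arrays 5 of 9. Their summed level, as a multiple of the 75th percentile, was 3.97 to 6.12 in control cells and 1.33 to 1.42 in knockdown cells. Postn and Lum were not above background in either. The part of these markers in the results was not tested.

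Between PGCs and control cells, 7 of the 8 genes tested besides Bcl3 passed, 3 higher and 4 lower, where 75.6% of all genes did so, 43.2% higher and 32.4% lower. The arrays of 7 of the 8 did not overlap, against 78.5% of all genes. Nothing is read from these counts, since the comparison chose Bcl3. All 3 of the rises (Rela, Relb, Ikbkb) changed sign under spike-in scaling, whereas the 4 falls (Nfkb1, Nfkb2, Nfkbib, Nfkbie) were called under both. Spike-in scaling moved the median of all genes from 0.18 to -0.77, a shift of -0.95, and the share of rises among all calls from 57.2% to 13.48%. Relative to that shift the order of the genes is the same under both scalings. Between PGCs and knockdown cells, a comparison that shares the PGC arrays, 8 of 8 passed, 3 higher and 5 lower, where 76.3% of all genes did so, 44.9% higher and 31.4% lower, and the arrays of 7 of 8 did not overlap, against 78.5%. There spike-in scaling called 5 of 8 and moved the share of rises among all calls from 58.8% to 12.1%.

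**Figure D2:**
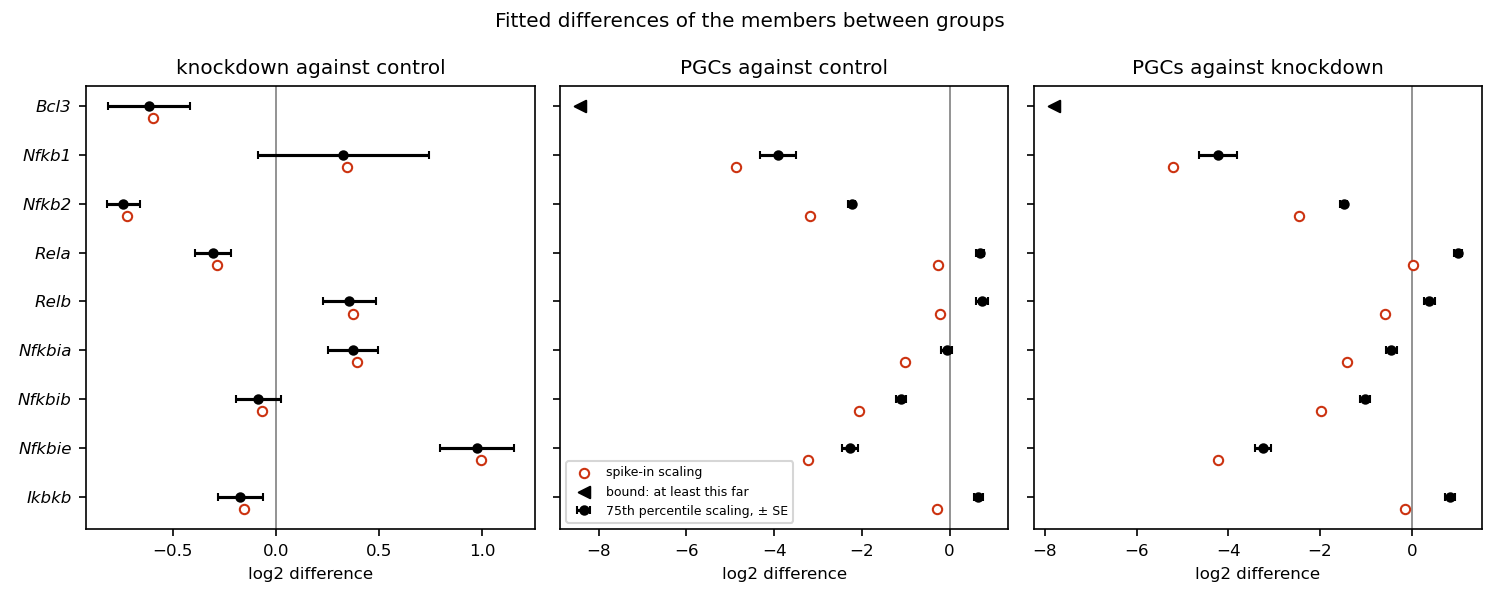
Fitted log2 differences (x axis) of the 9 genes tested in each of the 3 comparisons; black points with bars are the 75th percentile scaling with SE, open red circles the spike-in scaling, and the arrowhead is the bound for Bcl3, which is at least this far. Nfkb1, Nfkb2, Nfkbib and Nfkbie lie below 0 in PGCs under both scalings, while Rela, Relb and Ikbkb lie above 0 relative to control cells only under the 75th percentile scaling.

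Upstream of these genes, most of the receptors and ligands that could be tested were lower in PGCs. Of 28 listed, 14 passed the filter and were tested. From control cells to PGCs 0 rose, 12 fell and 2 were not called, where 43.2% of all genes rose and 32.4% fell. The median was -2.27, or -1.59 with undetected genes at their bound, against 0.18 for all genes. Genes that passed the filter only through the group where they are high had to differ, here and in the lists that follow, so these counts are descriptions. Examples are Tnfrsf1a, the main TNF receptor (-2.59, adjusted p = 9.49e-07), Tnfrsf12a (-1.21), and Cd14, a co-receptor for lipopolysaccharide (-1.98). Tnfrsf13c, the BAFF receptor, was at least 10.5-fold lower by 1 probe and differed by -1.15 by another. With the knockdown, 0 rose and 5 fell, where 18.2% of all genes rose and 21.9% fell, with a median of -0.28 against -0.07. Ltbr, the lymphotoxin beta receptor of the non-canonical pathway, fell by 1.43 (adjusted p = 0.00347), its ligand gene Ltb was at least 5.57-fold lower, and Cd40 fell by 1.60. Spike-in scaling left 0 rises and 2 falls, Ltb and Cd40, and did not call Ltbr (adjusted p = 0.103). From knockdown cells to PGCs, 0 rose and 11 fell, where 44.9% of all genes rose and 31.4% fell, and spike-in scaling gave 0 rises and 12 falls.

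Adaptors and kinases between receptors and IKK gave counts near those of all genes. From control cells to PGCs, 11 of 32 rose, 12 fell and 9 were not called, where 43.2% of all genes rose and 32.4% fell (median -0.04 against 0.18). Under spike-in scaling 0 rose and 13 fell, where 13.48% of 8620 calls over all genes were rises. Myd88, the adaptor of Toll-like and interleukin receptors, fell by 2.35 (adjusted p = 1.71e-07), Tradd, an adaptor of the TNF receptor, by 2.38, and Card10 by 2.15. Ikbkg, the regulatory subunit of IKK, rose by 1.62 (adjusted p = 6.07e-07), which the spike-in scaling put at 0.67 and did not call. With the knockdown 5 of 32 rose and 7 fell, none of them by 2-fold, where 18.2% of all genes rose and 21.9% fell. Spike-in scaling left 0 rises and 0 falls there. From knockdown cells to PGCs 8 rose and 13 fell, where 44.9% of all genes rose and 31.4% fell, and spike-in scaling gave 0 rises and 15 falls.

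Other IkB proteins and negative regulators were also near the background, with 10 rises and 7 falls among 21 from control cells to PGCs (median 0.20 against 0.18). Of all genes 43.2% rose and 32.4% fell. Under spike-in scaling the list had 0 rises and 7 falls, where 13.48% of 8620 calls over all genes were rises. Irak3, an inhibitor of Toll-like receptor signalling, fell by 3.98 and was above background on 2 of 3 PGC arrays, and Pdlim2, a ubiquitin ligase that acts on nuclear Rela, fell 9.22-fold. Nkiras1, which binds IkB proteins, rose by 1.87, and Fbxw11, which recognises phosphorylated IkB, rose by 1.45, with spike-in values of 0.92 and 0.49 that were not called. With the knockdown 7 rose and 3 fell (median 0.19), where 18.2% of all genes rose and 21.9% fell. Among the rises were the deubiquitinase Cyld, by 1.42 (adjusted p = 0.000309), and Btrc, a relative of Fbxw11, 2.15-fold. Spike-in scaling left 0 rises and 0 falls, with adjusted p = 0.0911 for Cyld and 0.311 for Btrc. From knockdown cells to PGCs 10 rose and 7 fell, where 44.9% of all genes rose and 31.4% fell, and spike-in scaling gave 0 rises and 8 falls.

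Among 35 listed target genes of NF-kB, 22 were tested. From control cells to PGCs 4 rose, 15 fell and 3 were not called (median -1.77, or -1.35 with bounds). Of all genes 43.2% rose and 32.4% fell, with a median of 0.18. Under spike-in scaling 0 rose and 16 fell, where 13.48% of 8620 calls over all genes were rises. The complement gene C3 fell by 2.86 by 1 probe and 1.83 by another (log2 differences -2.86 and -1.83), Gadd45b fell by 2.65, the adhesion molecule gene Icam1 fell by 3.19, and the chemokine gene Cxcl10 was at least 7.88-fold lower. With the knockdown 1 rose and 10 fell, where 18.2% of all genes rose and 21.9% fell, with a median of -0.55 against -0.07 for all genes. Csf1, the macrophage growth factor gene, fell by 1.98 (adjusted p = 0.000137), Tnfaip2 fell by 1.47, and Cd83 was at least 1.71-fold lower. The 1 that rose was Icam1, by 1.11 (adjusted p = 0.000563). Spike-in scaling left 0 rises and 2 falls, Csf1 and Cd83, and did not call Tnfaip2 (adjusted p = 0.0846) or Icam1 (0.30). From knockdown cells to PGCs 5 rose and 12 fell, where 44.9% of all genes rose and 31.4% fell, and spike-in scaling gave 1 rise and 14 falls.

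The 13 genes whose products bind Bcl3 or its complexes gave 5 rises and 5 falls from control cells to PGCs (median 0.12). Of all genes 43.2% rose and 32.4% fell, with a median of 0.18. Under spike-in scaling there were 0 rises and 4 falls, where 13.48% of 8620 calls over all genes were rises. The largest fall was that of Pir (log2 difference -3.76, adjusted p = 6.95e-08), whose product pirin binds Bcl3. With the knockdown 4 rose and 4 fell, where 18.2% of all genes rose and 21.9% fell. Crebbp, a coactivator, rose by 1.74 (adjusted p = 0.000177), Ncoa1, another, rose by 1.15, and Cyld, which removes ubiquitin from Bcl3, was given above. Spike-in scaling left 1 rise, Crebbp, and 0 falls, and did not call Ncoa1 (adjusted p = 0.261). From knockdown cells to PGCs 4 rose and 6 fell, where 44.9% of all genes rose and 31.4% fell, and spike-in scaling gave 0 rises and 6 falls.

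Most tested genes of the LIF and STAT3 pathway, upstream of Bcl3 in ES cells, were lower in PGCs. Of 19 tested, 14 fell, 3 rose and 2 were not called from control cells to PGCs (median -1.09, or -0.92 with bounds). Of all genes 43.2% rose and 32.4% fell, with a median of 0.18. Under spike-in scaling 14 fell and 0 rose, where 13.48% of 8620 calls over all genes were rises. Socs3, the feedback inhibitor that STAT3 induces, fell 176-fold (log2 difference -7.46, adjusted p = 1.30e-07), Gbx2 fell by 4.83, Klf4 fell by 3.05 and Stat3 itself fell by 2.36. The 3 rises were those of the kinase genes Jak1 (1.06), Jak2 (0.99) and Tyk2 (1.70), named after their values were seen, and none of them was called under spike-in scaling. With the knockdown the same list gave 7 rises and 2 falls (median 0.28 against -0.07), where 18.2% of all genes rose and 21.9% fell. Of these, Sgk1 rose by 1.01 (adjusted p = 0.00232). Spike-in scaling left 0 rises and 0 falls, with adjusted p = 0.41 for Sgk1. From knockdown cells to PGCs 4 rose and 14 fell, where 44.9% of all genes rose and 31.4% fell, and spike-in scaling gave 0 rises and 15 falls.

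**Figure D3:**
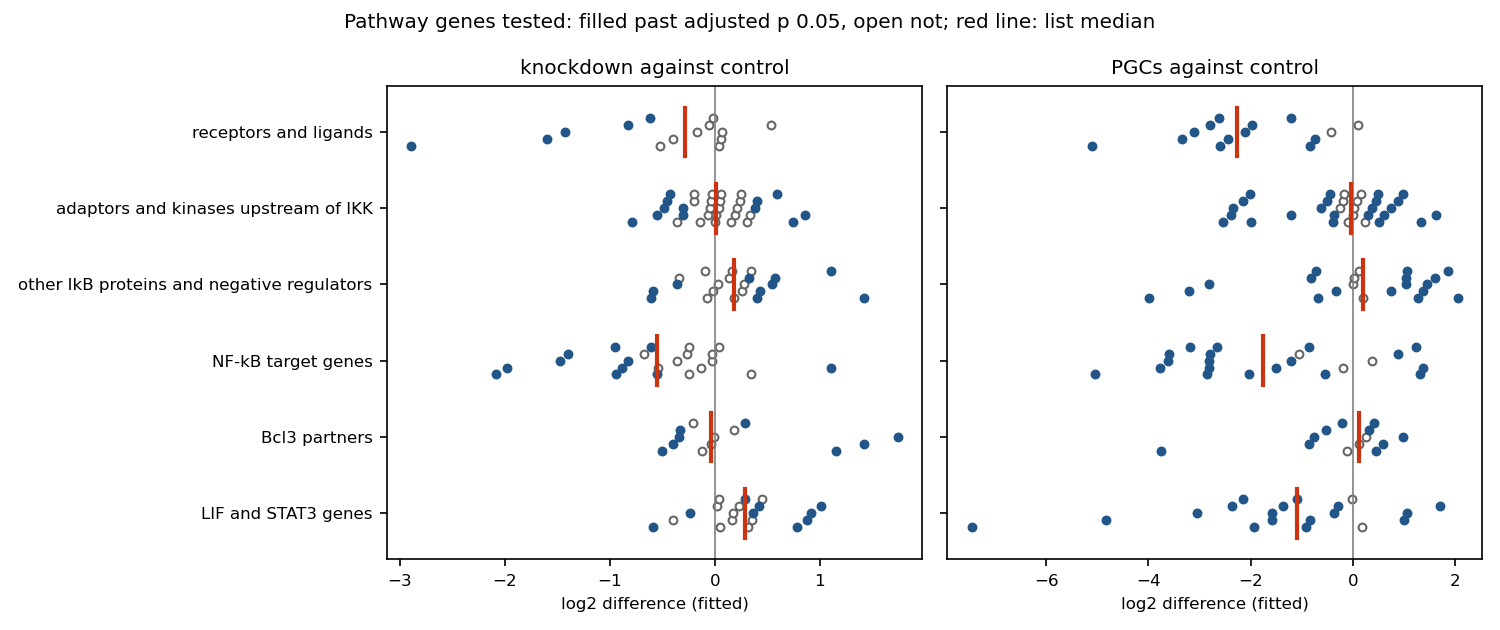
Fitted log2 differences (x axis) of the tested genes of 6 lists in knockdown against control cells and in PGCs against control cells; each point is 1 gene, filled where the adjusted p was under 0.05, and red lines are list medians, with undetected genes at their fitted value. The medians in PGCs are lowest for receptors and ligands (-2.27) and target genes (-1.77). Under spike-in scaling no gene of any list was called as a rise in PGCs over control cells. Of the 8620 calls over all genes in that setting, 13.48% were rises.

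Blood cell markers were compared because leukocytes use this pathway most. Of 9 leukocyte markers on the array, 4 were well above background on all control arrays, 4 on all knockdown arrays and 6 on all PGC arrays, with summed levels of 2.78 to 3.49, 3.01 to 3.51 and 2.55 to 3.03. Such sums rest mostly on the probes with the highest signals, which for leukocytes were those of Itgam and Csf1r. Ptprc, Lyz2, Tyrobp and Cx3cr1 were not above background on any ES array, and Lyz2 on no PGC array, while Tyrobp was above it on all PGC arrays. Ptprc and Cx3cr1 were above it on 2 of 3 PGC arrays, and Adgre1 on all PGC arrays and no control array. From control cells to PGCs Tyrobp rose by 3.26 and Adgre1 by 1.30. Cd14 differed by -1.98 and Itgam by -0.31, and Csf1r and Fcer1g were not called. Of 8 endothelial markers, 6 were above background on all control arrays, 6 on all knockdown arrays and 3 on all PGC arrays, with sums of 2.41 to 3.38, 2.35 to 3.42 and 2.75 to 3.39, and Emcn was above it on none. Single markers moved in both directions. From control cells to PGCs Cldn5 rose by 2.21, Flt1 (-1.65), Esam, Tie1 and Tek fell, and Kdr was not called. With the knockdown Tie1 (2.84) and Tek (1.13) rose, Flt1 (-0.89) and Cldn5 (-0.84) fell, and Esam and Kdr were not called. Markers of gonadal somatic cells summed to 2.88 to 3.64 in control cells and 2.12 to 2.98 in knockdown cells. In PGCs they summed to 3.25 to 6.02. In these groups 9, 7 and 9 of 10 were above background on all arrays. Amh rose by 3.63 from control cells to PGCs, Cyp11a1 by 2.43, Nr5a1 by 2.39, Dhh by 2.07, Star by 1.71 and Inha by 1.70. Wt1, whose probe gave the highest signal among these in control cells, differed by -0.996. Gata4 (-0.31), Nr2f2 (-0.07) and Sox9 (0.06) were not called. Amh was above background on all PGC arrays and on no ES array. Fibroblast markers summed to 1.19 to 1.45 in PGCs, below the control range given above, with 5 of 9 above background on all PGC arrays. From control cells to PGCs Col1a1, Col1a2, Thy1, Pdgfrb, Acta2 and Dcn fell, while Col3a1 rose by 1.08. Lum was above background on 1 PGC array and on no ES array. The part of these cells in the results was not tested.

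Among the genes whose pattern over the 9 arrays was most like that of Bcl3, by the root mean square difference of mean-centred log2 levels over 14443 other symbols, were Fgf4 (0.44), Calca (0.49), Aqp3 (0.66) and Obox6 (0.88). Fgf4, a growth factor gene of pluripotent cells, was at 4.94, 4.78 and 4.79 in control cells, 4.57, 4.33 and 4.37 in knockdown cells, and -4.80, -4.88 and -5.81 in PGCs. Its Pearson correlation with Bcl3 was 0.995 over 9 arrays, a description that rests on the gap between ES cells and PGCs. This likeness uses the same PGC values of Bcl3 that chose the set: Calca, Aqp3 and Obox6 were, like Bcl3, never well above background in PGCs, and Fgf4 was so on 1 of 3 arrays. Calca and Obox6 were also lower in the mean of the knockdown arrays than in that of the control arrays, while Aqp3 went from a mean of 2.74 to one of 3.29. The control and knockdown values entered the choice of these genes too, so these directions are a description.

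Bcl3 and Relb lie near each other on chromosome 7, with 10 genes between them in the RefSeq order. The stretch from Relb to the fifth gene past Bcl3 was chosen after its values were seen, so it has no test. It holds 16 genes besides Bcl3, 13 of them on the array and 11 well above background on all arrays of some group. Of these 11, 8 were more than 2-fold lower in PGCs than in control cells, where 20.4% of all genes were, and 3 (Relb, Clptm1 and Tomm40) differed by less than that. The nearest measured gene on the Relb side, Cblc, differed by -5.46, Bcam next to it by -4.70 and Nectin2 by -2.04. Cblc was well above background on only 1 of 3 PGC arrays, so the size of its fall is uncertain. Farther toward Relb, Apoe differed by -4.76 and Apoc1 by -2.58. On the far side the nearest gene tested, Ceacam16, had a fitted difference of -3.15 and was not well above background on any PGC array. Past it Pvr differed by -3.85 and Igsf23 by -3.99. In knockdown cells Pvr differed from control by -1.78, Nectin2 by -0.89 and Cblc by -0.12, beside the -0.62 of Bcl3. Igsf23 (-0.75), Tomm40 (-0.25) and Ceacam16 (-0.19) were also below control. Bcam (0.56), Relb (0.36), Apoc1 (0.32), Clptm1 (0.07) and Apoe (0.04) went the other way. Of these neighbours only Pvr, Nectin2, Igsf23 and Apoc1 passed the threshold for the knockdown in the fit over all genes.

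**Figure D4:**
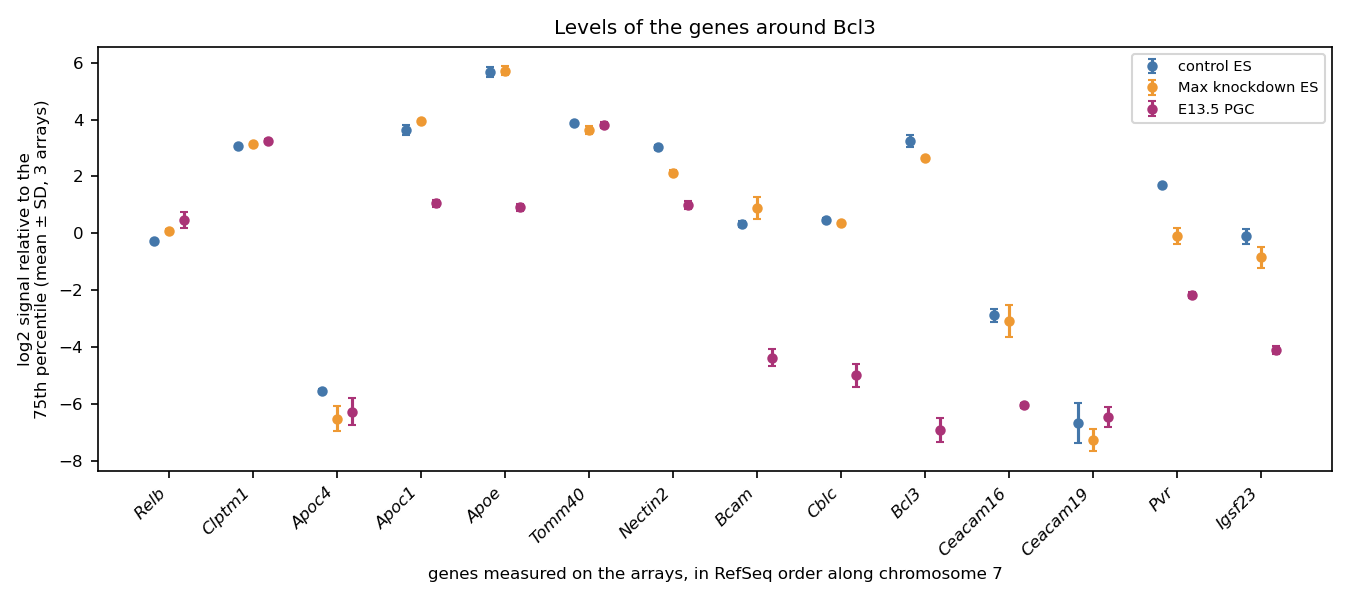
Log2 levels relative to the 75th percentile of the array (y axis, mean and SD of 3 arrays) of the genes measured around Bcl3, in their order along chromosome 7 (x axis, not to distance), in the 3 groups. Bcl3, Cblc and Bcam lie far lower in PGCs than in ES cells, while Relb, Clptm1 and Tomm40 stay within 1 unit.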

How the data were processed

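Per the file headers, the authors' deposited spot intensities come from Feature Extraction version 10.7.3.1 and mouse build mm9; 100 ng of total RNA was labelled with Cy3 per the labels' protocols. The authors' deposited log2 table, whose columns correlated at 0.99994 to 0.99999 with the scanner values and had medians from -0.12 to 0.39, was used only as an alternative; the centring of its columns is unknown.

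Processed signals were set to log2 minus the 75th percentile of each array. Of 39429 probes, 65 with an outlier flag were left out; 26012 were named through RefSeq accessions and 13352 kept the name in the file. The probe with the highest mean stood for a gene. The 20443 genes that stood well above background throughout 1 group or more were fitted with limma 3.58.1 in R 4.3.3, all 9 arrays in 1 model, with Benjamini-Hochberg adjustment at 0.05; the script was tested on simulated data. Control 1, 2 and knockdown 1, 2 shared a slide, control 3 and knockdown 4 another, and PGCs lay on 2 others, so slide and group cannot be told apart for PGCs. Members and lists were chosen with earlier results of these data known. All 10 members, 3 label checks, up to 4 called genes per list with a 2-fold change and the 5 genes most like Bcl3 are named by rule, except 1 of these 5, which is not reported here. The genes near Bcl3 were chosen after their values were seen. Alternatives were quantile, spike-in (7 of 10 spike-in probes) and normexp scaling, filters, probe choice, slide terms and arrays left out.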

Additional observations from a re-analysis of the deposited data

How the results depend on the processing

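Scaling to the spike-in RNA took the genes called between knockdown and control cells from 5 to 0 (all genes: 1007 calls, 71.4% of them rises, against 8205 and 45.3%), with Bcl3 at -0.60 (adjusted p = 0.959), and those called in PGCs from 7 to 4 against control and from 8 to 5 against knockdown. It reversed Rela (-0.26), Relb (-0.21) and Ikbkb (-0.30) in PGCs against control, and Relb (-0.58) and Ikbkb (-0.14) in PGCs against knockdown. With the slide as a block the spike-in count for the knockdown was 4 (6517 calls over all genes); the cause of either change was not tested. Testing dim genes too left 2 genes called for the knockdown, with Bcl3 at -0.62 (adjusted p = 0.0819). Leaving out 1 array gave 2 to 4 calls for the knockdown, fewest without control 1 or knockdown 2, a Bcl3 difference between -0.70 and -0.50, 7 calls in PGCs against control, and 7 to 8 against knockdown. Quantile and normexp scaling, the other filters, the probe mean, the intensity trend, the deposited table, slide terms and fits without the group not compared kept these 4 results within 1.5 times or on their side of the threshold, except that the filter on all 9 arrays leaves out Bcl3. Normexp shrank the falls of Bcl3, Nfkb1, Nfkb2 and Nfkbie in PGCs, as given above. Of the tested values of single genes called at first, 311 kept the call over all settings, 25 lost it and 5 reversed; of those not called, 90 stayed so and 9 gained a call.

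With the replicate number as a block, 5 genes were called for the knockdown, Bcl3 was at -0.67 (adjusted p = 0.0291), Rela lost its call (0.0808), Relb gained one (0.0474), and 7 were called in PGCs against control. Control and knockdown arrays share only 2 numbers, both on 1 slide, with correlations of their deviations of 0.37 and 0.39, and control and PGC arrays gave -0.03 to 0.02, so the numbers were not taken as pairs. Normexp on fewer spots was chosen after seeing the data. Signal over background limits Rel in all groups, and Bcl3, Nfkb1 and Nfkbie in PGCs.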
